A study of Mus musculus with 15 samples.

Results

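Tumors harvested on day 5 of a course of intratumoral poly(I:C) were compared with tumors harvested on day 3, the interval over which interferon-stimulated genes were first at lower levels while injections were planned to continue. The comparison used 6 of the 15 tumors of the series, 3 from each of the 2 days, chosen by the time point label. All 15 were fibrosarcomas grown under the skin of female BALB/c mice from WEHI-164, a mouse fibrosarcoma line, and were labelled WT. The day 3 and day 5 tumors had received poly(I:C) as 1 µg in 25 µL daily, with 6 doses planned. The untreated day 0 tumors and the treated day 1 and day 7 tumors are given only as context. The dose is uncertain, because the supplement of the study describes these tumors with a larger daily amount, and the number of injections before each harvest was not given in the sources used here. No day 3 or day 5 tumors without poly(I:C) were analysed here, so time in the animal and continued injection cannot be told apart.

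Poly(I:C) is a man-made RNA of paired strands that mimics a virus. In endosomes it is read by Toll-like receptor 3, and in the cytosol by the helicases RIG-I and MDA5, all of which lead to the making of type I interferon. Interferon acts through a complex that holds STAT2 and IRF9, which binds a short DNA element in front of interferon-stimulated genes, and these genes include the sensors themselves, antiviral enzymes and the brakes on the pathway. Interferon gamma, which comes from T cells and NK cells, signals through a receptor of its own and drives antigen presentation and the chemokines that draw in T cells.

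The 6 libraries held between 24.8 M and 28.3 M (mega-counts). Levels are given as CPM, which puts each tumor's counts on 1 common total. A gene with no count could still be present at up to 3 counts, which equalled 0.106 to 0.121 CPM in these tumors, and such a limit covers counting error only. One of the 6 stood apart from the other 14 tumors. Day 3 replicate 1 lay at 144 on the first principal component of log2 CPM, where the others lay between -77.0 and 45.1, and on average it correlated with them at 0.884, where each of them reached 0.956 or more. The summed CPM of 26 skeletal muscle markers was 5913 in this tumor and between 305 and 658 in the other 5 of the comparison. The summed CPM of 25 macrophage markers was 20278 in it, against 4673 to 9209, and that of 18 fibroblast markers was 34665, against 13566 to 19292. None of the 18 fibroblast markers, Vim and Col1a1 among them (genes of the cell type that the line is labelled as), was at 0 throughout the 6 tumors. The same held for the 26 skeletal muscle and 18 keratinocyte markers, so presence alone does not identify the cell type. Because day 3 replicate 1 stood apart, list medians are given with and without it. A single gene's printed fold change is also given without it where that turned its direction or moved its log2 value by over 1.5 times. Without it, day 3 rests on 2 tumors.

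No gene passed the adjustment for multiple testing between day 3 and day 5. EdgeR's quasi-likelihood test called 0% of the 15494 genes tested at an adjusted p under 0.05, and the smallest adjusted p-value was 0.503. At an unadjusted p under 0.05 there were 1229 genes (7.93%), of which 812 (5.24%) were lower and 417 (2.69%) higher on day 5. By DESeq2 the number called was likewise 0, and 1674 genes had an unadjusted p under 0.05. Without day 3 replicate 1, edgeR called 0 genes, with a smallest adjusted p-value of 0.413 and 387 genes (2.5%) at an unadjusted p under 0.05, while DESeq2 called 2. Of those 387 genes, 176 (1.14%) were lower and 211 (1.36%) higher. In direction the fold changes were balanced, with 50.4% of genes lower on day 5 and a median log2 fold change of -0.00. In size they were not, with a 5th percentile of -1.25 and a 95th percentile of 0.46. Without day 3 replicate 1 these percentiles were -0.55 and 0.45. Every difference below is thus short of the threshold for a single gene, and the unadjusted p-values are given to rank the genes and to set lists beside the share of all genes.

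The clearest common direction was in the interferon response. All 50 genes of the list, chosen as targets of type I interferon, were lower on day 5 than on day 3, where 50.4% of all genes were, and all 50 were lower without day 3 replicate 1 as well, where 46.9% of all genes were. The median log2 fold change was -0.75, and -0.80 without that tumor. An unadjusted p under 0.05 was found for 26 of the 50 genes, against 5.24% of all genes in that direction, and for 24 without day 3 replicate 1, against 1.14%. The 3 day 5 tumors all lay below the 3 day 3 tumors in 31 of the 50 genes, against 4.83% of all genes, and below the remaining pair in 44, against 8.13%. Many of these genes are driven by the same factors, so the 50 are not 50 separate observations. This list, like the others below, was chosen with earlier results of these data known, so the shares are not an independent test.

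The interferon list level, the mean log2 CPM of its genes, was 6.76, 7.22 and 6.67 in the day 3 tumors and 6.15, 6.43 and 5.87 in the day 5 tumors. The lowest day 3 tumor was therefore above the highest day 5 tumor. In the untreated tumors the level was 5.70 ± 0.18. It was 6.88 ± 0.30 for the day 3 group, 6.15 ± 0.28 for the day 5 group and 5.72 ± 0.14 for the day 7 group (SD, n = 3 each). In 49 of the 50 genes the day 5 mean lay between those of day 0 and day 3, against 9699 of all 15494 genes tested. In 16 genes all 3 day 5 tumors were still above all 3 untreated tumors, against 1067 of all genes. Among the day 5 tumors, replicate 3 was below every day 3 tumor in 48 of the 50 genes, replicate 1 in 43 and replicate 2 in 34. Over all genes tested these numbers were 5000, 2262 and 3399.

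**Figure D1:**
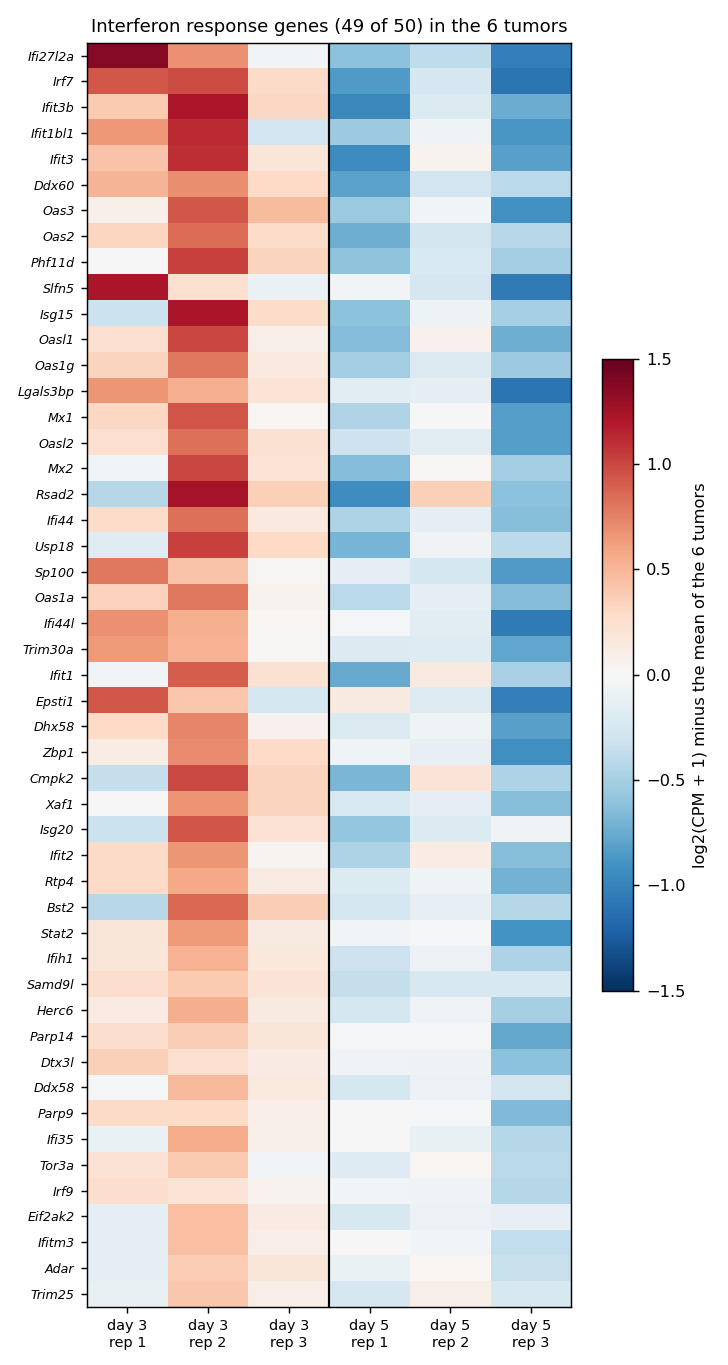
Level of 49 of the 50 interferon response genes in the 6 tumors, as log2(CPM + 1) minus the gene's mean over the 6 tumors, with genes ordered from the most negative to the least negative fitted fold change and day 3 left of the line. The day 3 columns are mostly above the mean of the gene and the day 5 columns mostly below it. Rsad2 in day 5 replicate 2 is among the exceptions.

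Irf7, the transcription factor that amplifies type I interferon production, was at 560, 579 and 359 CPM in the day 3 tumors and at 163, 246 and 136 CPM in the day 5 tumors. The groups did not overlap, and the day 3 mean was 2.75 times the day 5 mean. The log2 fold change was -1.46 ± 0.49 (SE, edgeR), with an unadjusted p of 0.0113 and an adjusted p of 0.503. On day 0 its mean was 80.9 CPM and on day 7 it was 93.9 CPM, so the day 5 tumors lay between the day 3 tumors and the untreated level. Ifi27l2a, an interferon-induced gene, had a difference of like size at -1.46, which was -1.03 without day 3 replicate 1.

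Ddx60, an antiviral helicase, had the smallest p-value in the list. It was at 61.6, 69.8 and 52.8 CPM on day 3 and at 24.0, 35 and 32 CPM on day 5, against 23.1, 29.4 and 28.2 CPM in the untreated tumors. Ddx60 had a log2 fold change of -1.02 ± 0.25 (SE), and of -1.0 without day 3 replicate 1. The unadjusted p was 0.00165 and edgeR's adjusted p was 0.503. By day 5 the values of this gene overlapped those of the untreated tumors, while those of Irf7 did not.

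The IFIT proteins bind foreign RNA and block its translation. Ifit3 was at 109, 175 and 91.3 CPM on day 3 and at 41.4, 83.4 and 45.2 CPM on day 5, with no overlap and a log2 fold change of -1.14 (unadjusted p = 0.0375, edgeR). Ifit1 overlapped between the groups, with 61.0, 118 and 73.8 CPM on day 3 and 36.8, 68.9 and 44.5 CPM on day 5. In both genes, and in most of the list, day 3 replicate 2 held the highest value. It was the highest day 3 tumor in 41 of the 50 genes and replicate 1 in 9. Over all 15494 genes tested, replicate 2 was the highest in 4306 and replicate 1 in 6735. For most of the list the highest tumor was thus not the one that stood apart.

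Enzymes that sense or destroy viral RNA followed the same direction. The 2-5A synthetases Oas2 and Oas3 had log2 fold changes of -0.98 and -1.01, and Oas2 was at 161, 230 and 156 CPM on day 3 and 76.6, 106 and 95.7 CPM on day 5. Isg15, a ubiquitin-like modifier, was at 56.1, 166 and 85.5 CPM on day 3 and at 45.3, 66.7 and 49.4 CPM on day 5. Day 3 replicate 1 lay among the day 5 tumors for this gene, and its log2 fold change was -0.93 with and -1.22 without that tumor. Rsad2, whose product viperin makes a chain-terminating nucleotide, had the same arrangement, at 50.5, 163 and 87.9 CPM on day 3 and 35.3, 87.5 and 44.2 CPM on day 5. Mx1 and Oasl1 had log2 fold changes of -0.88 and -0.90. Zbp1, a sensor of Z-form nucleic acid, was at 225, 340 and 254 CPM on day 3 and at 200, 191 and 110 CPM on day 5, without overlap, and had a log2 fold change of -0.71.

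The signalling parts lay on the same side. Irf9, the DNA-binding part of the type I interferon complex, was at 104, 100 and 90.3 CPM on day 3 and 84.1, 84.0 and 64.0 CPM on day 5, with no overlap and a log2 fold change of -0.35. Usp18, which removes ISG15 and restrains the interferon receptor, had a log2 fold change of -0.84, and of -1.08 without day 3 replicate 1. The least negative value in the list was that of Trim25, a ubiquitin ligase that activates RIG-I, at -0.28.

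Interferon beta itself could not be compared. Its gene Ifnb1 had 2, 4 and 2 counts in the day 3 tumors and 2, 2 and 6 counts in the day 5 tumors, too few to enter the test. Its level in either group was at or near the limit that a count of 0 allows.

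The sensors of poly(I:C) were among the genes that were lower. In the list of 12 genes of double-stranded RNA sensing, which shares members with the interferon list, 10 were lower in the day 5 tumors, against 50.4% of all genes, and 5 of the 10 were lower at an unadjusted p under 0.05 (edgeR), against 5.24%. Without day 3 replicate 1 there were 9 and 4, against 46.9% and 1.14%. The list median was -0.38, and -0.39 without day 3 replicate 1, on the log2 scale. Tlr3 was at 31.6, 37.5 and 30.9 CPM on day 3 and at 24.0, 25.5 and 19.7 CPM on day 5, against a day 0 mean of 19.8 CPM. The groups did not overlap and the log2 fold change was -0.53 ± 0.22 (unadjusted p = 0.0316, edgeR). Ifih1, which encodes MDA5, had a log2 fold change of -0.58, and Ddx58, which encodes RIG-I, one of -0.43, both without overlap. The adaptors Mavs, at 0.09, and Ticam1, at -0.21 with and 0.03 without day 3 replicate 1, overlapped between the groups. The most negative value in the list was that of the kinase Ikbke, at -0.75 (-0.34 without that tumor), and the most positive that of Traf3, which joins these receptors to their kinases, at 0.18 (-0.02 without it).

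The promoters of several of these genes carry the element that the interferon-activated complex binds. RefSeq windows on GRCm38.p6, from 250 bases before to 50 bases after the start, were searched on both strands for the core of the interferon-stimulated response element, written as GAAA, 2 bases of any kind and GAAA again. Of the 50 interferon genes 38 had a window, and 18 of the 38 held the letters, against 3.99% of all 27025 genes with a window and 3.44% of the 32851 windows. Stretches from 5 genes that were lower on day 5, and from Cxcl10, are printed here on the strand of the gene. The matching bases are in capitals. Cxcl10 had a log2 fold change of -0.09, and of -0.39 without day 3 replicate 1. Where the capitals read TTTC, the element lies on the other strand.
Isg15, chr4:156200866-156200905, minus strand: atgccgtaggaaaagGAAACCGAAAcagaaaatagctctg
Ifit3, chr19:34583358-34583397, plus strand: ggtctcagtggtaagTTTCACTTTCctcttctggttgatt
Ifit1, chr19:34640789-34640828, plus strand: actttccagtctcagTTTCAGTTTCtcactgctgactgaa
Rsad2, chr12:26456548-26456587, minus strand: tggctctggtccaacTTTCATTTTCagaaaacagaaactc
Ddx60, chr8:61928019-61928058, plus strand: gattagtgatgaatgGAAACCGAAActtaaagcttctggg
Cxcl10, chr5:92349078-92349117, minus strand: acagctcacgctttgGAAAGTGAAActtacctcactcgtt
The Isg15, Ifit3 and Ifit1 windows hold the letters more than once, and 1 match of each is shown. Over all 428 tested genes with the letters in a window, 58.6% were lower on day 5, against 50.1% of the tested genes whose window lacked them. At an unadjusted p under 0.05 (edgeR), 7.48% and 5.19% were lower. Without day 3 replicate 1 the shares lower were 56.8% and 46.1%, and at that p they were 3.97% and 0.911%. The 428 include the 18 interferon genes counted above, so these shares are not separate from that list. A match is a description of the letters and not evidence that the site was bound in these tumors.

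Genes chosen as targets of interferon gamma had a median log2 fold change of -0.19, and of -0.25 without day 3 replicate 1. With 1 of the 6 tumors left out at a time the median ran from -0.47, without day 5 replicate 1, to 0.08, without day 5 replicate 3. Of 26 genes, 20 were lower, none had an unadjusted p under 0.05 in either direction by edgeR, and 1, Fcgr1, had no overlap between the groups, against 4.83% of all genes. Without day 3 replicate 1, 24 of 26 were lower, and 4 had no overlap with the remaining pair, against 8.13% of all genes. Their list level was 7.37, 7.72 and 7.57 in the day 3 tumors and 7.82, 7.53 and 6.52 in the day 5 tumors. Day 5 replicate 1 was thus above all day 3 tumors and replicate 3 below them. Replicate 3 was the lowest day 5 tumor in all 26 genes, against 38.3% of all genes. Day 5 replicate 1 was above every day 3 tumor in 12 of the 26 genes and in 1 of the 50 interferon response genes. Over all 15494 genes tested it was above them in 1968. The difference between the 2 lists in their change from day 3 to day 5 was not tested. The same letters were in 11 of the 16 interferon gamma targets with a window.

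Cxcl9, a chemokine for activated T cells and a textbook target of interferon gamma, was at 529, 363 and 345 CPM on day 3 and at 676, 392 and 188 CPM on day 5. Its day 5 tumors spanned the whole range of day 3, and the log2 fold change was 0.02 ± 0.49 (SE), and 0.26 without day 3 replicate 1. Cxcl10, a ligand of the same receptor, was at 121, 333 and 249 CPM on day 3 and 282, 265 and 113 CPM on day 5, with a log2 fold change of -0.09, and of -0.39 without day 3 replicate 1. Ifng, the cytokine itself, was at 5.56, 8.31 and 5.29 CPM on day 3 and 6.44, 6.19 and 1.37 CPM on day 5. The range of the list ran from -0.73 for Fcgr1, a receptor for antibody on monocytes and macrophages, to 0.16 for Ido1, a tryptophan-degrading enzyme, which turned to -0.24 without day 3 replicate 1. Cd274, which encodes PD-L1, was at 201, 199 and 177 CPM on day 3 and 198, 162 and 63.3 CPM on day 5.

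Antigen presentation on MHC class I was lower by a small amount. All 20 genes tested were lower on day 5, with and without day 3 replicate 1, against 50.4% and 46.9% of all genes. The median log2 fold change was -0.17 (-0.20 without that tumor), and by edgeR no gene had an unadjusted p under 0.05. The list level was 8.75, 8.89 and 8.76 in the day 3 tumors and 8.83, 8.67 and 8.23 in the day 5 tumors. Day 5 replicate 3 was the lowest day 5 tumor in all 20 genes, against 38.3% of all genes. Without day 5 replicate 3 the median was -0.02. The groups did not overlap in 3 of the 20 genes, H2-D1, H2-M3 and B2m, against 4.83% of all genes. H2-K1, a classical class I heavy chain, was at 1899, 1593 and 1463 CPM on day 3 and 1534, 1366 and 1075 CPM on day 5. Tap1, which carries peptides into the endoplasmic reticulum, was at 435, 484 and 445 CPM on day 3 and 480, 425 and 254 CPM on day 5, so that its groups overlapped. The range ran from -0.60 for H2-T23, a nonclassical class I chain, to -0.01 for Pdia3, an endoplasmic reticulum chaperone, which were at -0.39 and -0.11 without day 3 replicate 1. Counts of the class I heavy chains are uncertain, since their sequences are alike.

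**Figure D2:**
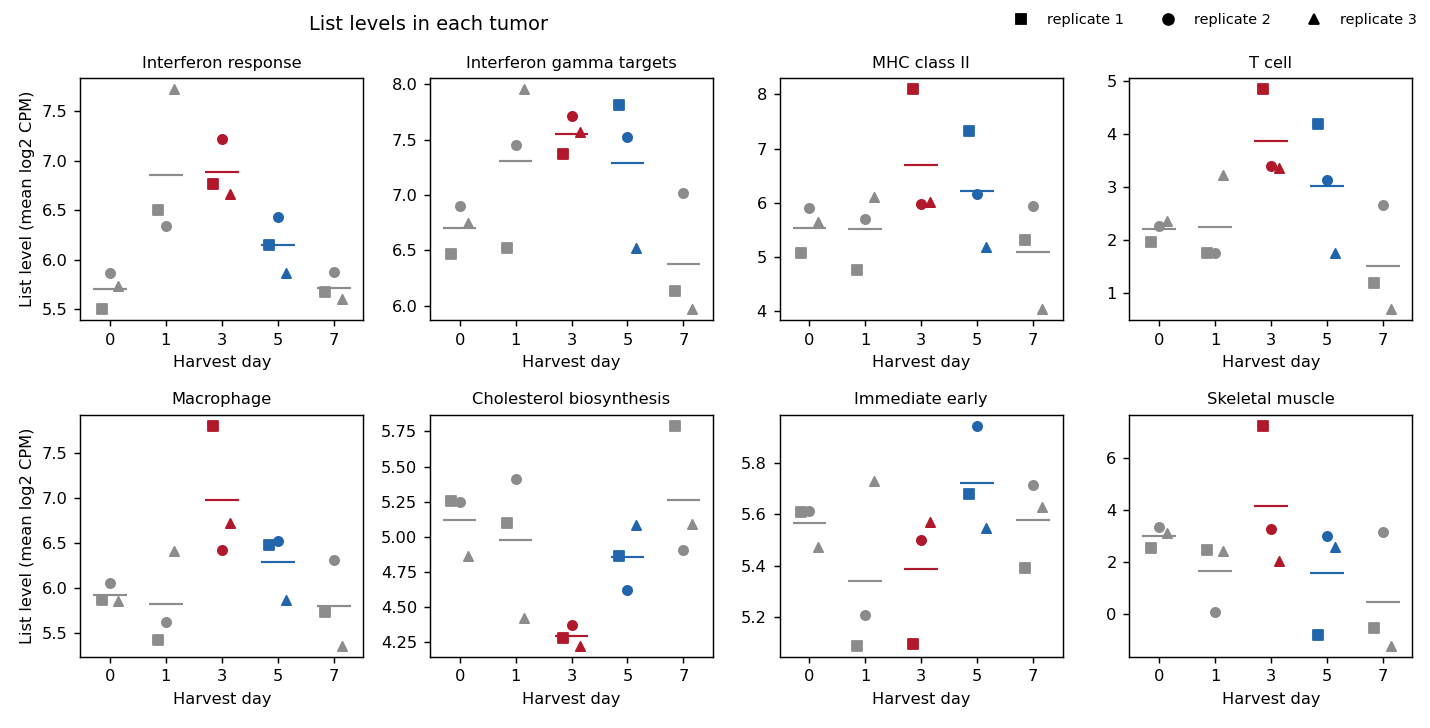
Level of 8 gene lists in each of the 15 tumors (y axis, mean log2 CPM over the genes of the list) by harvest day (x axis), with day 3 in red, day 5 in blue, the other days in grey, marker shape for the replicate number and a line at the mean of 3 tumors. The interferon response and cholesterol biosynthesis panels show no overlap of day 3 with day 5. The MHC class II, T cell, macrophage and skeletal muscle panels show day 3 replicate 1 above the other tumors. The y axes differ between panels and do not start at 0.

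Genes of cholesterol biosynthesis were higher in the day 5 tumors. Cells make cholesterol through the mevalonate pathway under the transcription factor SREBP2, which Srebf2 encodes. Of 25 genes, 24 were higher on day 5, where 49.6% of all genes were, and 24 without day 3 replicate 1, where 53.1% were. The median log2 fold change was 0.65, and 0.52 without that tumor. An unadjusted p under 0.05 was found for 9 genes, against 2.69% of all genes in that direction, and for 5 without day 3 replicate 1, against 1.36%. The 3 day 5 tumors were all above the 3 day 3 tumors in 17 genes, against 5.01% of all genes, and above the remaining pair in 20, against 7.74%. The list level was 4.28, 4.37 and 4.22 on day 3 and 4.86, 4.62 and 5.08 on day 5. Untreated tumors had a level of 5.12 ± 0.22 and day 7 tumors one of 5.26 ± 0.46 (SD, n = 3), so day 3 was the low point of the course and day 5 lay between it and the untreated level. For 22 of the 25 genes the day 5 mean was between those of day 0 and day 3, against 9699 of all 15494 genes tested.

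Srebf2 was at 79.8, 132 and 115 CPM on day 3 and at 168, 175 and 187 CPM on day 5, against 201 ± 12.5 CPM on day 0. The groups did not overlap, and the log2 fold change was 0.70 ± 0.20, and 0.53 without day 3 replicate 1 (unadjusted p = 0.00479 with that tumor, edgeR). Day 5 replicate 3 was the highest of the 6 tumors.

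Enzymes of the pathway lay in the same direction. Idi1, an isomerase of the isoprenoid steps, had the largest difference of the list at 1.31. Cyp51, a lanosterol demethylase, was at 1.10 and Fdps, the farnesyl diphosphate synthase, at 1.09 on the same log2 scale. Sqle, the squalene epoxidase, was at 23.6, 50.1 and 40.2 CPM on day 3 and 64.9, 57.5 and 87.7 CPM on day 5, and day 3 replicate 1 was the lowest.

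The letters TCACNCCAC, the core of the sterol regulatory element, were found in 1 of the 17 genes of the list with a window, against 1.44% of all genes. The match was in Hmgcs1, which starts the pathway and was at 52.7, 44.3 and 44.4 CPM on day 3 and 77.4, 61.7 and 100 CPM on day 5, and it is shown with the matching bases in capitals.
Hmgcs1, chr13:119690199-119690237, plus strand: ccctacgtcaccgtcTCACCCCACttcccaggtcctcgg

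Genes of sterol efflux and oxysterol handling depended on 1 tumor. Their median log2 fold change was -0.86, and -0.06 without day 3 replicate 1. Ch25h, an interferon-induced enzyme that makes 25-hydroxycholesterol, was at 16.1, 80.0 and 75.6 CPM on day 3 and 58.6, 73.1 and 55.1 CPM on day 5. Its log2 fold change was 0.12 with and -0.31 without day 3 replicate 1, so that its direction turned. The range of the list ran from -1.37 for Cyp7b1, an oxysterol hydroxylase that turned to 0.51 without that tumor, to 0.12 for Ch25h.

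Immediate early genes, which respond within minutes to growth factor and stress signals, were higher on day 5 in part. Of 19 genes, 15 were higher, the median log2 fold change was 0.41 (0.20 without day 3 replicate 1), and 6 had an unadjusted p under 0.05 in the higher direction in either case, against 2.69% of all genes with that tumor and 1.36% without it. Egr2, a zinc finger factor, was at 20.2, 20.3 and 23 CPM on day 3 and at 37.3, 32.5 and 27.5 CPM on day 5, without overlap, and its log2 fold change was 0.62 ± 0.19 (unadjusted p = 0.00584, edgeR). Ier2 was at 23.6, 36.3 and 36.8 CPM on day 3 and 41.1, 49.8 and 46.9 CPM on day 5. Jun and Junb, subunits of the AP-1 factor, had log2 fold changes of 0.46 and 0.45, and of 0.27 and 0.29 without day 3 replicate 1. The range ran from -0.34 for Atf3 to 0.89 for Fosb (-0.08 and 0.55 without that tumor), and both overlapped between the groups. Per the study's methods the tumors went into RNAlater at once after removal, and the part of handling in these values was not tested.

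**Figure D3:**
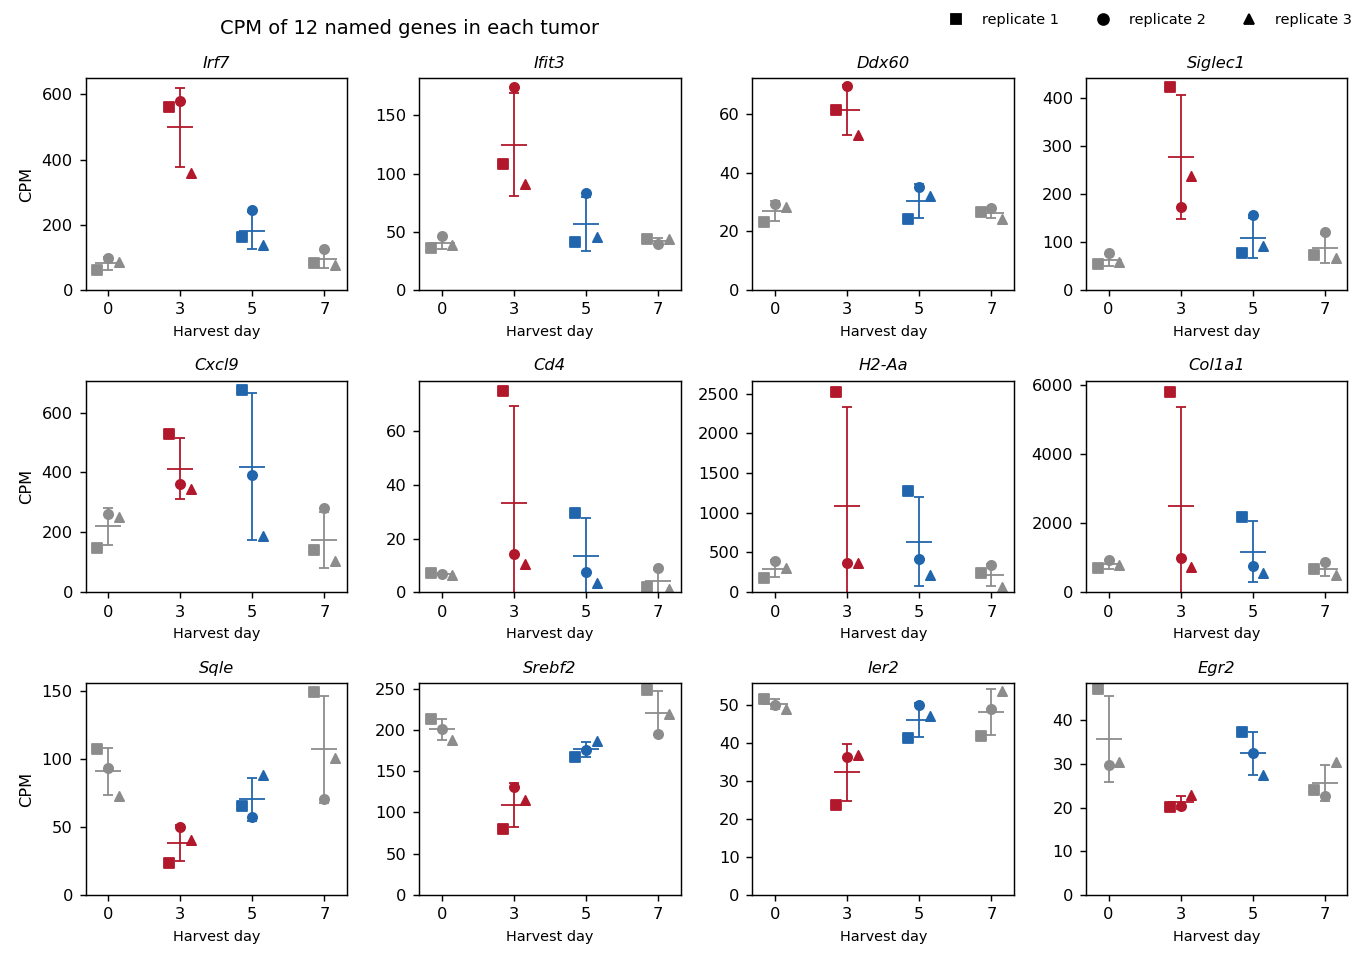
CPM of 12 genes (y axis, from 0) in each tumor of days 0, 3, 5 and 7 (x axis), with marker shape for the replicate number and bars for the mean ± SD of 3 tumors, clipped at 0. Irf7, Ifit3, Ddx60 and Siglec1 are lower and Sqle, Srebf2, Ier2 and Egr2 higher in each day 5 tumor than in each day 3 tumor. For Cd4, H2-Aa and Col1a1 the day 3 SD comes from replicate 1.

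Lists of immune cells gave a different answer with and without day 3 replicate 1. In bulk tumors, fewer cells of a type and less RNA per cell cannot be told apart. For T cell genes the median log2 fold change was -0.78 with 24 of 25 genes lower, and -0.09 with 13 of 25 lower without that tumor, and by edgeR none of its genes was lower at an unadjusted p under 0.05. Its list level was 4.83, 3.39 and 3.36 on day 3 and 4.18, 3.13 and 1.75 on day 5. Day 3 replicate 1 was the highest day 3 tumor in 24 of the 25 genes, against 43.5% of all genes. Day 5 replicate 1 was the highest day 5 tumor in all 25, against 35.7% of all genes, and replicate 3 the lowest in 24, against 38.3%. The spread between the tumors of a day was thus as large as the difference between the days.

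Cd4, the coreceptor of helper T cells, was at 74.9, 14.4 and 10.6 CPM on day 3 and 29.6, 7.68 and 3.34 CPM on day 5. Its log2 fold change was -1.30 ± 0.94 with and 0.13 without day 3 replicate 1. Cd3e, a part of the T cell receptor complex, went from -0.78 to 0.09 and Cd8a, the coreceptor of cytotoxic T cells, from -0.51 to 0.06. Foxp3, the factor of regulatory T cells, was at 13.3, 4.04 and 5.84 CPM on day 3 and 15.3, 2.95 and 2.16 CPM on day 5, and its log2 fold change was -0.19 with and 0.48 without that tumor. Pdcd1, the receptor PD-1, likewise turned from -0.33 to 0.34. The ends of the T cell range were Cd4 and Tcf7, a factor of naive and memory T cells, at 0.48 (0.28 without that tumor).

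Markers of regulatory T cells had a median of -0.17 with that tumor and 0.14 without it, although its list level was lower on day 5 by 0.20 without it. The B cell list turned from -0.97 to 0.16 while its list level stayed lower by 0.10, and the dendritic cell list from -0.64 to 0.04 with a level lower by 0.11. In these lists the sign depended on whether the median of fitted fold changes or the difference in list level was taken.

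Genes of cytotoxic T cells and NK cells kept their direction, but by list level the tumors of the 2 days overlapped. All 24 were lower on day 5 in both fits, against 50.4% and 46.9% of all genes. The median log2 fold change was -0.81, and -0.37 without day 3 replicate 1, but by edgeR none had an unadjusted p under 0.05. The list level was 4.46, 4.15 and 3.52 on day 3 and 4.16, 3.39 and 1.93 on day 5. Day 5 replicate 1 was below both day 3 replicates 2 and 3 in 1 of the 24 genes, against 5672 of all 15494. Replicate 3 was the lowest day 5 tumor in all 24, against 38.3% of all genes. Gzmb, a granule protease, was at 72.7, 142 and 79.6 CPM on day 3 and 81.8, 72.6 and 22.0 CPM on day 5, and Prf1, the pore-forming perforin, at 38.3, 74.1 and 44.6 CPM and then 78.3, 42.3 and 9.56 CPM. Both overlapped, and Prf1 in day 5 replicate 1 was above every day 3 tumor. Ccl5, a chemokine of T cells and NK cells that interferon also induces, was the member without overlap, at 129, 178 and 72.3 CPM on day 3 and 72.1, 55.5 and 31.5 CPM on day 5. Its log2 fold change of -1.25 ± 0.65 was the lower end of the range, and Gzmf, another granzyme, was the upper end at -0.04 (-0.55 without day 3 replicate 1).

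Antigen presentation on MHC class II turned with the same tumor. The median of 12 genes was -0.70 with all 12 lower, and 0.62 with 10 of 12 higher once day 3 replicate 1 was left out. H2-Aa, a class II chain, was at 2524, 362 and 363 CPM on day 3 and 1271, 417 and 219 CPM on day 5, with a log2 fold change of -0.77 with and 0.83 without it. Cd74, the invariant chain, turned from -0.72 to 0.63, and Ciita, the class II transactivator, from -0.43 to 0.59. Day 3 replicate 1 and day 5 replicate 1 were the highest tumors of their days in all 12 genes, against 43.5% and 35.7% of all genes. The groups overlapped in every one of the 12.

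The macrophage list had a median of -0.79, and of -0.21 without day 3 replicate 1, with 23 and 20 of 25 genes lower. Its genes lower at an unadjusted p under 0.05 (edgeR) went from 6, against 5.24% of all genes, to 1, against 1.14%, and the 1 that was left was Siglec1, a sialic acid receptor of macrophages that interferon induces. Siglec1 was at 422, 172 and 238 CPM on day 3 and 76.7, 155 and 92.1 CPM on day 5, without overlap. Its log2 fold change was -1.36 ± 0.37 with and -0.91 without that tumor (unadjusted p = 0.00317 and 0.022, edgeR). The pan-macrophage gene Adgre1, which encodes F4/80, was at 467, 192 and 247 CPM on day 3 and 160, 229 and 128 CPM on day 5, and C1qa, a complement subunit made by macrophages, at 1634, 677 and 822 CPM and then 589, 737 and 445 CPM. Both overlapped between the groups. The ends of the range were Lyve1, a hyaluronan receptor of lymphatic vessels and resident macrophages, at -3.38 (-1.31 without that tumor) and Gpnmb, a glycoprotein of lipid-laden macrophages, at 0.24 (0.035 without it).

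Of the other myeloid genes, Ly6c2, a marker of inflammatory monocytes, was at 100, 92.7 and 38.0 CPM on day 3 and 43.8, 38.2 and 15.8 CPM on day 5. S100a8, of neutrophils, was below 5 CPM in all 6 tumors. Arg1, an arginine-degrading enzyme of suppressive myeloid cells, was at 117, 248 and 167 CPM on day 3 and 208, 149 and 122 CPM on day 5. Xcr1, of the dendritic cells that prime CD8 T cells, had a log2 fold change of -0.74 with and -0.00 without day 3 replicate 1. The monocyte-attracting chemokines, a set of 8 that the study displayed for these tumors and that is therefore not an independent choice, had a median of -0.47, and of -0.53 without that tumor. Among them Ccl8 was lowest at -1.43 (-0.83 without that tumor), with 705, 362 and 202 CPM on day 3 and 226, 175 and 69.8 CPM on day 5. Ccl2 was the single member above 0, at 0.11, and it turned to -0.28 without that tumor.

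Genes of neighboring tissues moved with day 3 replicate 1. The median log2 fold change was -3.75 for 26 skeletal muscle genes and -0.57 without that tumor, and -1.63 and -0.14 for 18 adipocyte genes. The skeletal muscle list was also low in day 5 replicate 1, with a level of -0.79 against 2.99 and 2.57 in the other day 5 tumors. Day 5 replicate 1 was below every day 3 tumor in 25 of the 26 genes, against 2262 of all 15494. Acta1, the actin of skeletal muscle, was at 894, 54.6 and 19.7 CPM on day 3 and at 0.0732, 37.2 and 26.2 CPM on day 5. Adipoq, the fat cell hormone adiponectin, was at 15, 2.43 and 0.0778 CPM on day 3 and 1.13, 1.07 and 0.251 CPM on day 5, so that the lowest of these lay under the limit that a count of 0 allows. Col1a1, the main fibrillar collagen, was at 5818, 987 and 721 CPM on day 3 and 2194, 774 and 562 CPM on day 5. Its log2 fold change of -1.09 became 0.48 without day 3 replicate 1. The part that muscle, fat or connective tissue in the specimen had in the other lists was not tested. Krt14, a keratin of skin, had 470 counts in day 3 replicate 3 and at most 2 in each of the other 5 tumors. Cd79a, of B cells, was at 2.90, 0.846 and 0.311 CPM on day 3 and 1.46, 0.711 and 0.970 CPM on day 5.

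The genes of dividing cells had a list level of 5.82 in day 3 replicate 1 and of 6.97 to 7.18 in the other 5 tumors. The proliferation list had a median of 0.33 with all 31 genes higher, and of 0.05 with 19 of 31 higher without day 3 replicate 1. Mki67 was at 226, 360 and 496 CPM on day 3 and 346, 406 and 503 CPM on day 5. Hypoxia and glycolysis genes had a median of 0.35 (0.18 without day 3 replicate 1). Of 30, 28 and 27 were higher, against 49.6% and 53.1% of all genes. Their list level was 6.96, 7.51 and 7.61 on day 3 and 7.41, 7.74 and 7.98 on day 5. Day 5 replicate 1 was below both day 3 replicates 2 and 3 in 22 of the 30, against 5672 of all 15494 genes. The groups did not overlap in 1 of the 30, against 5.01% of all genes in that direction. Car9, a carbonic anhydrase of hypoxic cells, was at 15.6, 35.8 and 50.1 CPM on day 3 and 34.1, 54.4 and 75.2 CPM on day 5. Vegfa, an angiogenic factor, had a log2 fold change of 0.33 with and 0.07 without day 3 replicate 1. Hbb-bs, a globin chain of red cells, was at 10.3, 4.89 and 4.67 CPM on day 3 and 10.7, 6.97 and 29.9 CPM on day 5.

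**Figure D4:**
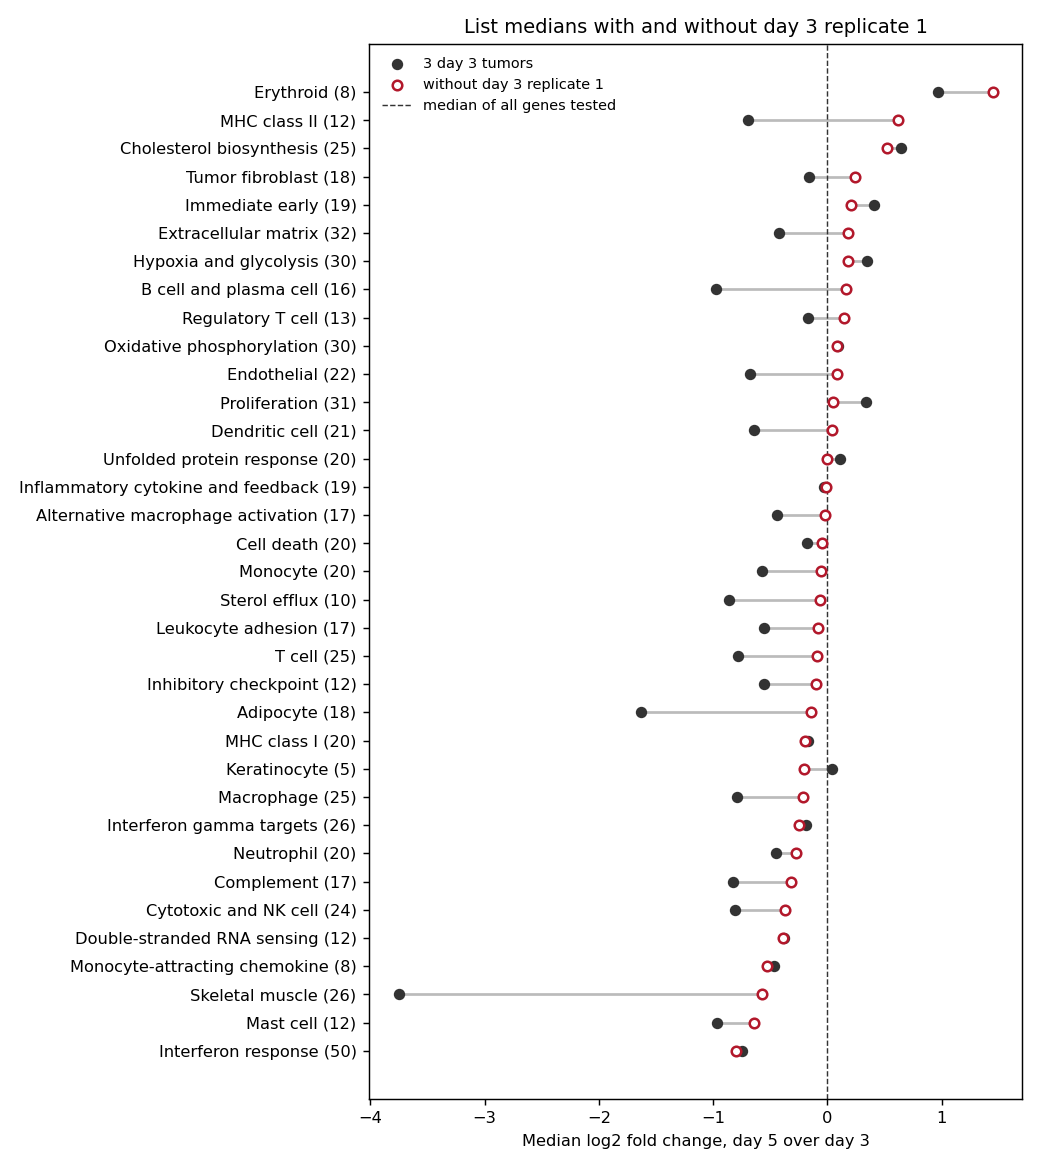
Median log2 fold change, day 5 over day 3 (x axis), of 35 gene lists (y axis, number of genes tested in brackets) with all 3 day 3 tumors (filled) and without day 3 replicate 1 (open), with a dashed line at the median of all genes tested. The interferon response stays at -0.75 and -0.80 and cholesterol biosynthesis at 0.65 and 0.52, while MHC class II crosses from -0.70 to 0.62 and skeletal muscle shifts from -3.75 to -0.57.

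The genes of at least 5 CPM with no overlap and the smallest p-values were led, on the lower side, by 9930111J21Rik2, at 142, 81.5 and 105 CPM on day 3 and 68.6, 71.1 and 65.3 CPM on day 5. Its log2 fold change was -0.68 ± 0.16 (unadjusted p = 0.00123, edgeR), and -0.44 without day 3 replicate 1. Ddx60 and Siglec1 were among the 10 as well. Mustn1, Trim72 and Synpo2l, genes of skeletal muscle, had log2 fold changes of -1.45, -3.02 and -2.62, and of -0.72, -1.26 and -1.19 without that tumor. Sned1 encodes a matrix protein, at 80.4, 52.4 and 99.4 CPM on day 3 and 46.3, 36.6 and 51.1 CPM on day 5, and had a log2 fold change of -0.79. Tep1, Srgap2 and Ncoa1, which encode a telomerase-associated protein, a regulator of the cytoskeleton and a coactivator of nuclear receptors, were between -0.42 and -0.49, and between -0.25 and -0.32 without that tumor. On the higher side, beside Srebf2, Egr2 and Ier2, were INADL, Hopx, Polr2m, Cnot7, Gm28438 and Cxxc5. INADL, a scaffold of tight junctions, lay between 6.73 and 10.3 CPM on day 3 and between 13.9 and 16.1 CPM on day 5, with a log2 fold change of 0.70 ± 0.19. The other 5 of these were between 0.33, for Polr2m, and 0.59, for Hopx. Gm28438 is annotated as a pseudogene, so its counts are uncertain. These genes were picked by the size of p in this same comparison, so their p-values describe the choice.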

How the data were processed

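Per the labels and the study's methods, poly(A) RNA was extracted with Trizol and RNeasy and sequenced as single-end reads. The authors ran kallisto and tximport on GRCm38 (mm10) and deposited expected counts per gene as whole numbers, 1 column per tumor. The transcript set and strandedness were not given in the sources used here. Kallisto divides reads among like transcripts, so counts of near-identical genes are uncertain, and 37 tested genes had counts identical to another gene's. Of 32544 entries 9156 had no count, and 1 that a spreadsheet had turned into a date, with at most 0.0268% of a tumor's counts, was left out. Symbols matched to RefSeq and GENCODE names numbered 31401. Genes above 0.366 CPM (10 counts in a library of median size) in at least 3 tumors were tested with edgeR 4.0.16 (R 4.3.3), with TMM factors and a two-sided quasi-likelihood test of all 15 tumors by day, and Benjamini-Hochberg adjustment over all genes. No p over a list was computed, and the script was tested on simulated data. List levels used log2 CPM with a prior count of 2. Between replicates the counts differed beyond counting noise (chi-square per degree of freedom from 18.4 to 269). The study counts its groups in mice, so the tumors of a day were taken as separate animals. The members and the 35 lists were chosen with earlier results of these data known. Genes named were a roster of 53, the 10 in each direction with the smallest p among genes of at least 5 CPM without overlap, and the ends of the range of a list described, of which some are not reported here. Alternatives were DESeq2 1.42.0, limma 3.58.1 voom with quality weights, other filters, scalings and tumors.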

Additional observations from a re-analysis of the deposited data

How the results depend on the processing

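EdgeR called 0 genes under every alternative. DESeq2 called 0 with all tumors and 2 without day 3 replicate 1, both higher on day 5 and named here after their values were seen. Rps12, a ribosomal protein gene, had 2140, 458 and 542 counts on day 3 and 1558, 3573 and 3625 on day 5. Gm26602 had 27, 0 and 0 counts on day 3 and 51, 40 and 17 on day 5. The 1229 genes at an unadjusted p under 0.05 became 394 in a fit of the 6 tumors alone and ran from 387 to 3316 with 1 tumor left out. The deviations of same-numbered tumors correlated at 0.45, 0.06 and 0.49, and those of differently numbered tumors between -0.49 and 0.32. Whether the replicate numbers pair the tumors was not settled by these values. An edgeR fit with the replicate block gave 855 genes at an unadjusted p under 0.05 and 0 called.

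Leaving out 1 tumor at a time moved the interferon median between -0.90 and -0.50, the cholesterol median between 0.44 and 0.70, and the macrophage median between -1.01 and -0.21. Under voom with quality weights, which gave day 3 replicate 1 a weight of 0.072, the cholesterol median was 0.39 and the macrophage median -0.0773. Of 71 named genes, 54 kept their direction with any 1 tumor of the 6 left out and 17 did not. The ranges of those log2 fold changes were Arg1 -0.38 to 0.19, Ccl2 -0.28 to 0.50, Cd3e -1.53 to 0.093, Cd4 -2.59 to 0.13, Cd74 -1.58 to 0.63, Cd79a -0.83 to 0.86, Cd8a -0.90 to 0.061, Ch25h -0.31 to 0.45, Ciita -1.03 to 0.59, Col1a1 -1.91 to 0.48, Cxcl10 -0.39 to 0.26, Cxcl9 -0.51 to 0.37, Foxp3 -1.59 to 0.48, H2-Aa -1.77 to 0.83, Mki67 -0.022 to 0.51, Pdcd1 -0.78 to 0.34 and Prf1 -1.01 to 0.20. Under voom the direction turned for Ccl2 (-0.090), H2-Aa (0.25), Cd74 (0.21), Ciita (0.43), Cd8a (0.16), Pdcd1 (0.36), Ch25h (-0.11), Mki67 (-0.054), Adipoq (1.01) and Cd79a (0.60), and with the replicate block for Cxcl10 (0.031). The cause of these changes was not tested. With 3 tumors against 3, an exact permutation test cannot go below 0.1.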

Other observations

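The electron transport and ATP synthase genes of oxidative phosphorylation were among the steadiest lists. Of 30 genes, 24 were higher on day 5 and 26 without day 3 replicate 1, with medians of 0.09 and 0.08, and the day 5 tumors were all above the day 3 tumors in 6 genes, against 5.01% of all genes. Atp5g1, a subunit of the ATP synthase, had the largest difference at 0.29 (0.18 without that tumor).

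Mast cell genes were lower on day 5 in 10 of 12 cases in both fits, against 50.4% and 46.9% of all genes. The medians were -0.97 and -0.64, and by edgeR none had an unadjusted p under 0.05. The groups overlapped in all 12 genes with the 3 day 3 tumors. The list level was 5.61, 5.32 and 4.81 on day 3 and 5.24, 4.34 and 3.71 on day 5. Day 5 replicate 3 was the lowest day 5 tumor in all 12, against 38.3% of all genes. Cma1, a mast cell chymase, was at 169, 102 and 63.3 CPM on day 3 and 78.9, 46.7 and 27.9 CPM on day 5. The globin and other erythroid genes were higher in 8 of 8 cases, and in 7 of 8 without day 3 replicate 1, with medians of 0.97 and 1.45. Without day 5 replicate 3 the erythroid median was 0.21. Day 5 replicate 3, which held the lowest interferon gamma target level, held 20.1 CPM of Hba-a1, an alpha globin, against 7.98 and 4.45 CPM in the other day 5 tumors.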
